A study of Mus musculus with 6 samples.

Results

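The AP-1, EGR and NR4A immediate early genes are transcription factor genes whose RNA appears soon after a cell is stimulated and, for most of them, is lost again soon after the stimulus ends. Their levels were compared between 2 kinds of cultured mouse CD8+ T cells by collecting every probe set annotated with one of 10 gene symbols, Fos, Fosb, Fosl2, Jun, Junb, Jund, Egr1, Egr2, Egr3 and Nr4a1. The 10 genes had 19 probe sets (12 on the array type SubA, 4 on SubB and 3 on SubC) of 36899 on the arrays, and 15964 genes were named in all. Central memory (CM) cells and effector/effector memory (E/EM) cells both came from spleens and lymph nodes of female P14 mice, a T cell receptor transgenic line on the C57Bl/6 background, whose age is not given in the labels. Both received the peptide that their receptor recognises for 2 days. CM cells were then kept for 7 days in IL-15 and sorted for a high level of a surface marker, and E/EM cells were kept for 7 days in IL-2 and sorted for a low level of it. The cytokine, the sort and the name of the group cannot be told apart, and all cells carried 1 transgenic receptor and were made in culture. Each kind was hybridised to 1 array of each type, so there were no replicates, no p-value was computed, and every value describes these 6 arrays.

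FOS proteins (Fos, Fosb, Fosl2) pair with JUN proteins (Jun, Junb, Jund) to form AP-1, which binds DNA with NFAT at cytokine genes of stimulated T cells. EGR proteins are zinc finger factors induced through the MAP kinase pathway, of which Egr2 and Egr3 are known for restraining T cell activation. Nr4a1, also called Nur77, is an orphan nuclear receptor induced by antigen receptor signals. Several of these genes, Fos and Egr1 among them, are classic targets of serum response factor, which binds the CArG box, and of CREB, which binds the cyclic AMP response element (CRE).

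The promoters of the 3 FOS genes, which differed in opposite directions, and of Nr4a1, whose probe sets disagreed, are shown to let the sequence stand beside the values. Each is the 250 bases before a RefSeq transcription start in GRCm38.p6, given in the direction of the gene. Fosb lies at chr7:19310046-19310295 on the minus strand, Fos at chr12:85473640-85473889, Fosl2 at chr5:32136222-32136471 and Nr4a1 at chr15:101266596-101266845, each of these on the plus strand. Capitals mark the CRE core TGACG and the EGR site GCGNGGGCG on either strand.
Fosb: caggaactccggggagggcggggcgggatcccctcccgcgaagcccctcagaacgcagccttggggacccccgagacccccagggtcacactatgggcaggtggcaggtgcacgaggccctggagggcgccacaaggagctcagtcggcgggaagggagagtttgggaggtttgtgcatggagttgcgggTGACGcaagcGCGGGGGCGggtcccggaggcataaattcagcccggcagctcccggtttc
Fos: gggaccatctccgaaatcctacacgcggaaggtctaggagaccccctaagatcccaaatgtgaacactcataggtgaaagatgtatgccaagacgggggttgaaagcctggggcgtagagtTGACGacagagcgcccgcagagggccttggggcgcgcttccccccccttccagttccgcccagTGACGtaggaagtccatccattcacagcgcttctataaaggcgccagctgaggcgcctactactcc
Fosl2: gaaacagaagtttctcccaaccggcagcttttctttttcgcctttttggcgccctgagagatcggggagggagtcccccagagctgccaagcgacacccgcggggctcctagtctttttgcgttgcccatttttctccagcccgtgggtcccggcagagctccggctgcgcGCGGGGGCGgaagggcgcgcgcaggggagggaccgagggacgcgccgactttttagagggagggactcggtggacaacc
Nr4a1: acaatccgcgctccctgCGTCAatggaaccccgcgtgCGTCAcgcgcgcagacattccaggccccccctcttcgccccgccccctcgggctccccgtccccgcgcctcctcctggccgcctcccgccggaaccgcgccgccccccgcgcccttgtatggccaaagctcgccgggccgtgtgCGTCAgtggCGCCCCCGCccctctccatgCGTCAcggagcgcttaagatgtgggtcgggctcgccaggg

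The Nr4a1 window held 4 CRE cores, at bases -233, -213, -69 and -40, and 1 EGR site at -60. Fos held 2 CRE cores, at -129 and -66, and Fosb had 1 at -60 beside an EGR site at -50. Fosl2 had no CRE core and 1 EGR site at -79. RefSeq windows were matched for 8 of the 10 genes (all but Egr1 and Egr3), and a CRE core was found for 5 of these 8, Egr2, Fos, Fosb, Junb and Nr4a1, against 17.8% of all 32851 windows. Genes such as Egr2 have several windows, 12 in all for the 8 genes, and a gene was counted if any of them matched. The counts are thus per gene and the shares per window, so the 2 are not in like units. The EGR site was found for 3 of 8 genes, against 4.70% of windows. A CArG box was found for Egr2 alone, against 1.47% of windows, and the AP-1 site TGANTCA (6.75% of windows) and the NR4A element AAAGGTCA (1.34%) for 0 of 8. The CRE core and the EGR site are rich in G and C, and so were most of the member windows. The GC content was 68.8% for Fosb, 58.4% for Fos, 64.4% for Fosl2 and 74.4% for Nr4a1. Jund had 47.6%, and the median of all promoters was 52.4%. The part of base composition in these counts was not tested. These are matches of letters in short windows, and a site farther away is not seen.

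Values are linear signals as deposited. A signal was counted as measured above a floor set by the bacterial control probe sets of the same array type, 31.28 on SubA, 88.12 on SubB and 194.34 on SubC. A probe set that exceeded the floor on both arrays gave a ratio, CM divided by E/EM signal on the log2 scale, so a positive value means a higher signal in CM cells. Of the 19 probe sets, 13 gave a ratio, 1 was above the floor in CM cells alone, 1 in E/EM cells alone and 4 in neither. All 10 genes had at least 1 ratio, 3 had 2 ratios and 7 rested on a single one. Signals of different probe sets are not compared with each other, since probe sets differ in how strongly they respond.

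Of the 10 genes 1, Fosb, was at least 2-fold higher in CM cells, against 2.73% of 10946 measured genes, and 1 gene, Egr3, was at least 2-fold lower, against 5.61%. The median log2 ratio of the 10 was -0.20, against -0.0025 for all measured genes. Of the 10, 6 were below 0 and 4 above, against 50.3% of all measured genes below 0. Counted by probe set, 2 of the 13 ratios were past 2-fold on the CM side, against 3.92% of all 20232 ratios, and 2 on the E/EM side, against 5.93%. By family, the FOS genes ranged from -0.94 for Fosl2 to 1.60 for Fosb, the JUN genes from -0.47 to 0.15, and the EGR genes from -1.19 to -0.35, so the ranges overlapped. With 1 array per kind of cell these positions carry no test. In these bulk samples fewer cells with a transcript and less transcript per cell cannot be told apart.

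**Figure D1:**
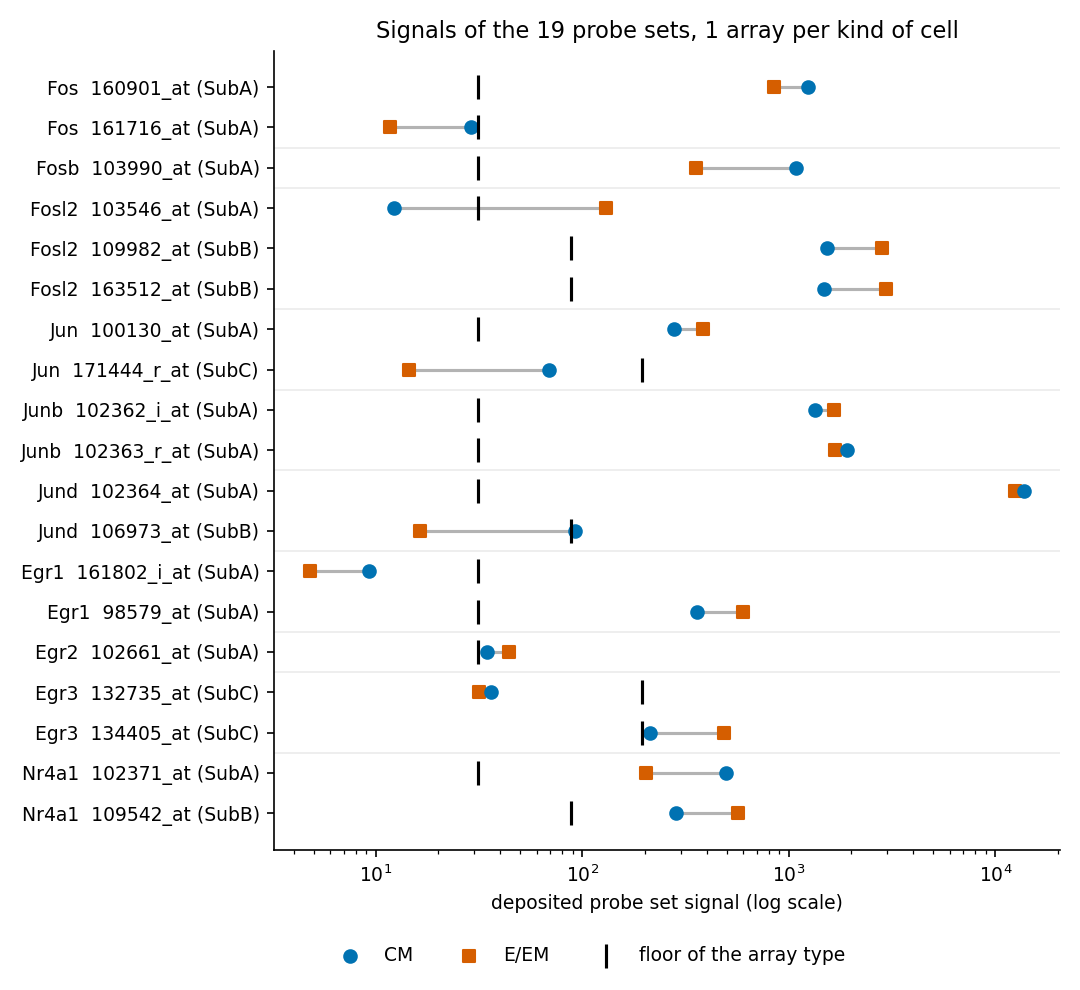
Deposited signal of each of the 19 probe sets (log axis) in CM cells (circles) and E/EM cells (squares), 1 array each, with the floor of the array type as a vertical tick. Fosb, Fos and 1 Nr4a1 probe set lie higher in CM cells at signals well above the floor, while all 3 Fosl2 probe sets lie lower.

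Fosb, which encodes an activating partner of JUN proteins, had the largest log2 ratio in size of the 10 genes, leaving out 1 Fosl2 probe set for which there is only a bound. The 1 Fosb probe set, 103990_at on SubA, had a signal of 1081.6 in CM cells and 356.1 in E/EM cells. That is a 3.04-fold higher signal in CM cells, a log2 ratio of 1.60, and 56 of the 10946 measured genes (0.512%) had a higher ratio. The weaker of its signals was 11.4 times the floor, so the floor does not limit this value, but no other probe set for Fosb was there to set beside it.

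Fos, the founding member of the family, differed in the same direction by less. Probe set 160901_at on SubA had 1231.3 in CM cells and 849.9 in E/EM cells, a log2 ratio of 0.53. A higher ratio was seen for 12.04% of measured genes, so the value of Fos was not unusual among them. The other Fos probe set, 161716_at, had 28.9 in CM cells and 11.7 in E/EM cells, under the floor in both, and gave no ratio.

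Fosl2, which encodes Fra-2, went the opposite way on every probe set. On SubB, 109982_at had 1537.6 in CM cells and 2827.7 in E/EM cells, and 163512_at had 1480.3 in CM cells and 2960.0 in E/EM cells. The log2 ratios were -0.88 and -1.0, with a mean of -0.94 ± 0.09 (SD, 2 probe sets), and both signals were at least 16.8 times the floor. The second ratio falls short of 2-fold by less than any printed digit, and the mean leaves Fosl2 outside the 2-fold count. On SubA, 103546_at had 12.2 in CM cells, under the floor, and 130.4 in E/EM cells, so it was at least 4.17-fold lower in CM cells. Such a bound of at least 4-fold was seen for 0.473% of 19042 named probe sets above the floor in E/EM cells. The 3 probe sets therefore had 1 direction and 2 sizes, about 2-fold on SubB and more on SubA. Lower ratios than that of Fosl2 were found for 6.29% of measured genes.

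The JUN genes, which supply the other subunit of AP-1, differed little. Jun had a signal of 277.1 in CM cells and 383.9 in E/EM cells on probe set 100130_at, a log2 ratio of -0.47. Its SubC probe set 171444_r_at was under the floor in both, at 68.7 in CM cells and 14.4 in E/EM cells. Lower ratios than that of Jun were found for 18.2% of measured genes.

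Junb, which binds the same sites as Jun and is less active at many of them, had a pair of SubA probe sets on either side of 0. Probe set 102362_i_at had 1333.1 in CM cells and 1658.8 in E/EM cells, and 102363_r_at had 1916.5 in CM cells and 1667.0 in E/EM cells. The log2 ratios were -0.32 and 0.20, a mean of -0.06 ± 0.37 (SD, 2 probe sets), so no direction is given. The spread is close to the median SD of 0.32 over 4094 genes with several ratios. Both probe set names carry a mark of the array maker for sets that did not meet all of its rules of probe selection.

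Jund, the JUN gene that is also expressed in resting cells, had 13756.6 in CM cells and 12375.3 in E/EM cells on 102364_at. Its log2 ratio of 0.15 was the highest of the 3 JUN genes and within the spread of probe sets of 1 gene. The SubB probe set 106973_at had 92.3 in CM cells, just above the floor, and 16.4 in E/EM cells, so it gave a bound of only 1.05-fold higher in CM cells.

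The 3 EGR genes were lower in CM cells on each probe set with a ratio, against 50.3% of all measured genes below 0. Of these 3 ratios, 2 rest on signals close to the floor. Egr1, the EGR gene best known as a readout of MAP kinase signalling, had 359.8 in CM cells and 601.9 in E/EM cells on 98579_at. Its log2 ratio of -0.74 was 1.67-fold lower in CM cells, the weaker signal was 11.5 times the floor, and 9.57% of measured genes had a lower ratio. Its other probe set, 161802_i_at, was under the floor in both, at 9.3 in CM cells and 4.8 in E/EM cells.

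Egr3 had 211.6 in CM cells and 483.6 in E/EM cells on 134405_at of SubC, a log2 ratio of -1.19. The CM signal was only 1.09 times the floor. Among probe sets whose weaker signal was under 2 times the floor, 12.7% were at least 2-fold lower in CM cells, against 4.16% of brighter ones, so the value of Egr3 lies in a range where such ratios were common. Its other SubC probe set, 132735_at, had 36 in CM cells and 31.5 in E/EM cells, both far under the floor. Egr2 had 34.7 in CM cells and 44.3 in E/EM cells on 102661_at, a log2 ratio of -0.35 with a weaker signal 1.11 times the floor. For Egr2 little more can be said than that both signals were barely measured.

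**Figure D2:**
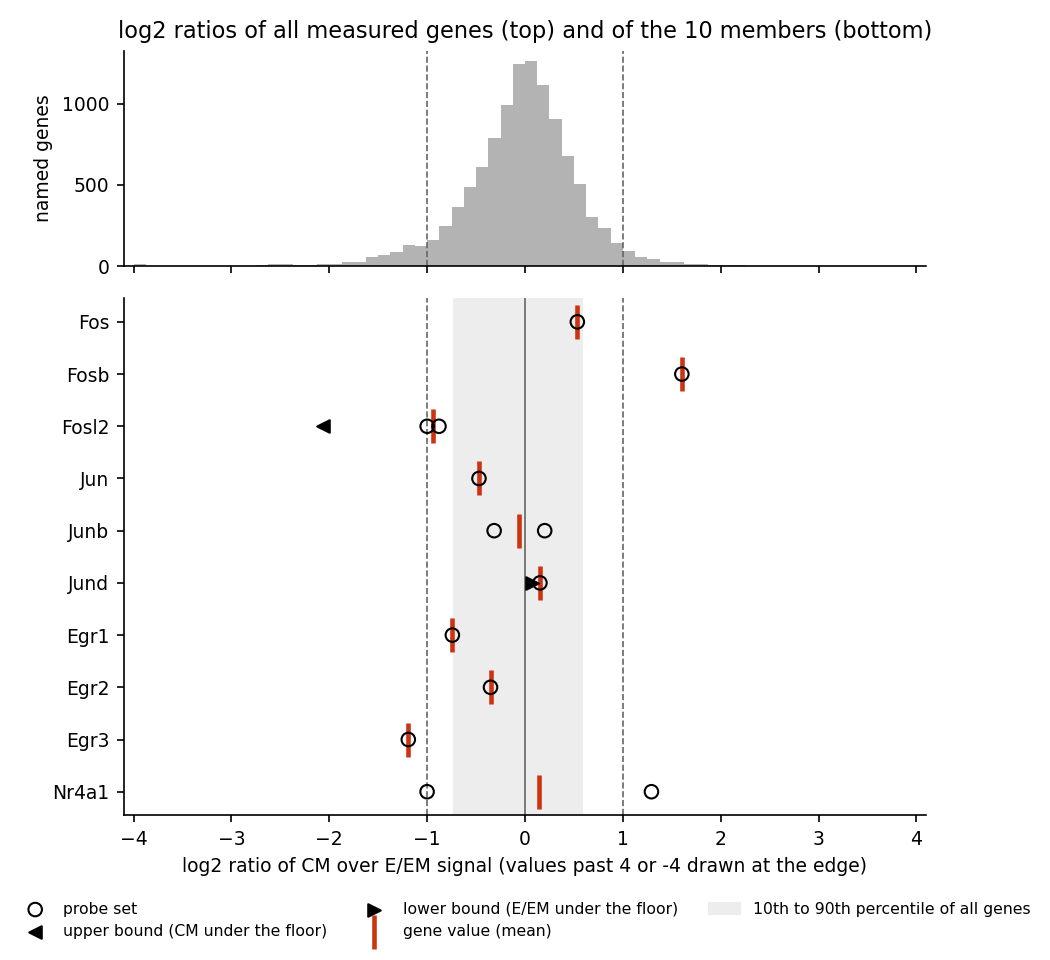
Top, number of named genes by CM over E/EM ratio on the log2 scale (10946 genes). Bottom, the 10 members, with open circles for probe sets, triangles for bounds, red bars for the gene value and a grey band from the 10th to the 90th percentile of all genes (-0.73 to 0.59). Fosb lies right of the 2-fold line, Egr3 left of it, and the 2 circles of Nr4a1 lie on or beyond opposite 2-fold lines.

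Nr4a1 gave contradictory values. On SubA, probe set 102371_at had 498.3 in CM cells and 203.5 in E/EM cells, a log2 ratio of 1.29. On SubB, 109542_at had 283.7 in CM cells and 567.6 in E/EM cells, a log2 ratio of -1.0. Both lay past 2-fold, in opposite directions, and their weaker signals were 6.51 and 3.22 times the floors. The mean of 0.15 ± 1.62 (SD, 2 probe sets) is thus no estimate of a direction, and Nr4a1 is given none here.

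Such a contradiction was rare on these arrays. Of 4094 genes with several ratios on any array type, 11 (0.269%), Nr4a1 included, had ratios at least 2-fold in both directions. An SD at least as large as that of Nr4a1 was found for 25 (0.611%), itself included. Probe sets were then averaged within each array type. Among 1247 genes with a ratio on both SubA and SubB, Nr4a1 was the only 1 at least 2-fold higher on one and at least 2-fold lower on the other. The median distance between a gene's SubA and SubB ratios was 0.35, and 4 of the 1247 genes (0.321%), Nr4a1 included, were as far apart as its 2.29. Across these 1247 genes 62.8% had ratios of the same sign and Pearson's r was 0.46, which describes genes that share the 4 arrays. The labels do not say whether the SubA and SubB arrays of a kind of cell carried the same RNA. Whether the probe sets respond to different transcripts or the RNA differed was not tested.

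**Figure D3:**
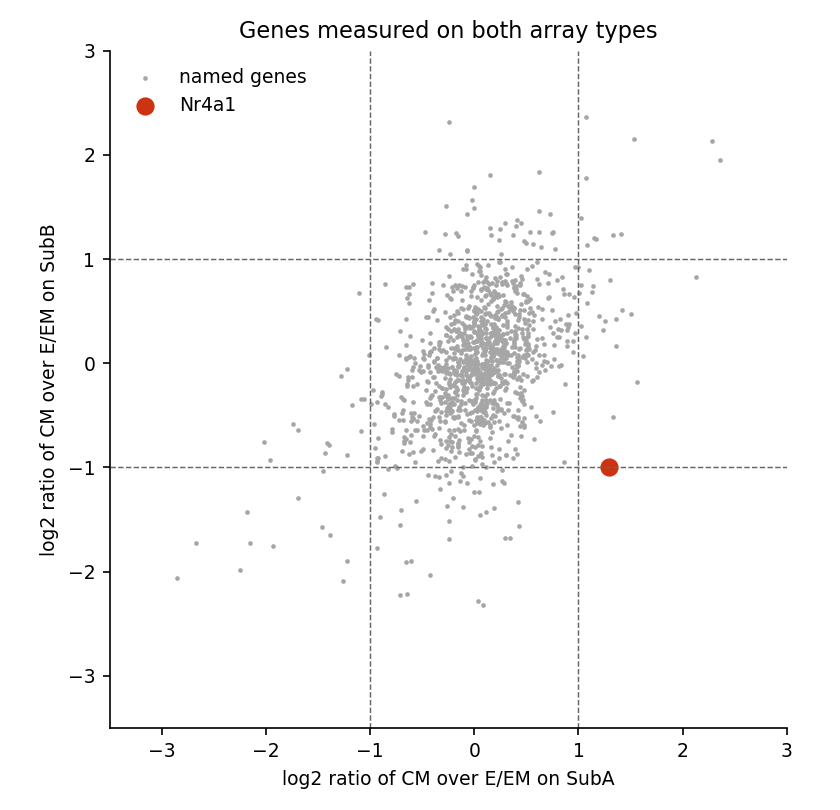
Ratio of CM over E/EM signal (log2 scale) on SubA (x axis) and on SubB (y axis) for the 1247 named genes measured on both, with 2-fold as dashed lines. Nr4a1 (large point) lies at 1.29 on SubA and -1.0 on SubB, in the lower right corner.

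Among relatives of the EGR and NR4A genes and the EGR corepressors, 0 of 4 genes with a ratio passed 2-fold. Their median was -0.45, with 3 of 4 below 0, against 50.3% of all measured genes. Egr4 had SubC signals of 2719.6 and 1404.5 in CM cells on 138503_r_at and 139185_at, against 5089.8 and 1785.0 in E/EM cells. Its mean log2 ratio was -0.63 ± 0.39 (SD, 2 probe sets). The genes named next were picked with their values known. Nab2, a corepressor that binds EGR proteins and is itself induced by them, had -0.72 ± 0.18 (SD, 2 probe sets). The related Nab1 had 0.21 ± 0.29 (SD, 2 probe sets), but its other probe sets disagreed. Of these, 163910_i_at was at least 2.05-fold lower in CM cells and 137015_at at least 1.69-fold higher. Nr4a2 had -0.27 ± 0.30 (SD, 2 probe sets). Nr4a3 was under the floor in CM cells on both its probe sets and 2.02 and 1.47 times the floor in E/EM cells.

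Much larger differences were found among other AP-1 and related basic leucine zipper factors. Of 15 with a ratio, 4 were lower in CM cells by 2-fold or more, against 5.61% of all measured genes, and 0 were higher by that much, against 2.73%. The median was -0.14. Batf3, which pairs with JUN proteins, had 61.4 in CM cells and 1907.7 in E/EM cells on its 1 SubA probe set, a log2 ratio of -4.96 with a CM signal 1.96 times the floor. Maf, a large factor of the same superfamily that promotes Il10 transcription, was lower on all 4 of its probe sets. One of them, 115390_at on SubB, gave a ratio of -5.13 from signals of 155.3 in CM cells and 5430.3 in E/EM cells. The other 3 were under the floor in CM cells and at least 4.54-fold, 4.05-fold and 10.4-fold lower there. Batf3, Maf and Atf3 were picked with their values known.

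Jdp2, which represses AP-1 targets as a partner of JUN proteins, had -1.23 with signals of 543.3 in CM cells and 1274.6 in E/EM cells. Atf3, a stress-induced partner of JUN proteins, had -1.14 ± 0.57 (SD, 2 probe sets). Bach2, which competes with AP-1 for its sites in T cells, lay the other way at 0.73, with 4378.2 in CM cells and 2632.9 in E/EM cells. Batf, the T cell paralogue of Batf3 and likewise picked with its value known, had 0.08, with 549.4 in CM cells and 520.7 in E/EM cells. Nfe2l1 had -0.48 ± 0.03 (SD, 2 probe sets) and Nfe2 had 0.18. Fosl1, the remaining FOS gene and picked with its value known, was under the floor in CM cells and 1.66 times the floor in E/EM cells.

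Kinases and factors that act upstream of these genes were mostly within 2-fold. Of 22 with a ratio, 1 was at least 2-fold higher in CM cells, against 2.73% of all measured genes, and 0 at least 2-fold lower, against 5.61%. The median was 0.17. The 1 gene was Mapk8, picked with its value known, which encodes the JUN kinase JNK1 and had 1.03 ± 0.37 (SD, 2 probe sets). Rasgrp1, which links the T cell receptor to RAS, had 0.86 ± 0.43 (SD, 3 probe sets). Mrtfa, a coactivator of serum response factor, had 0.57, Mef2d 0.42 ± 0.01 (SD, 2 probe sets) and the MAP kinase kinase Map2k2 -0.31. Srf itself, picked with its value known, had 0.05 ± 0.66 (SD, 3 probe sets).

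**Figure D4:**
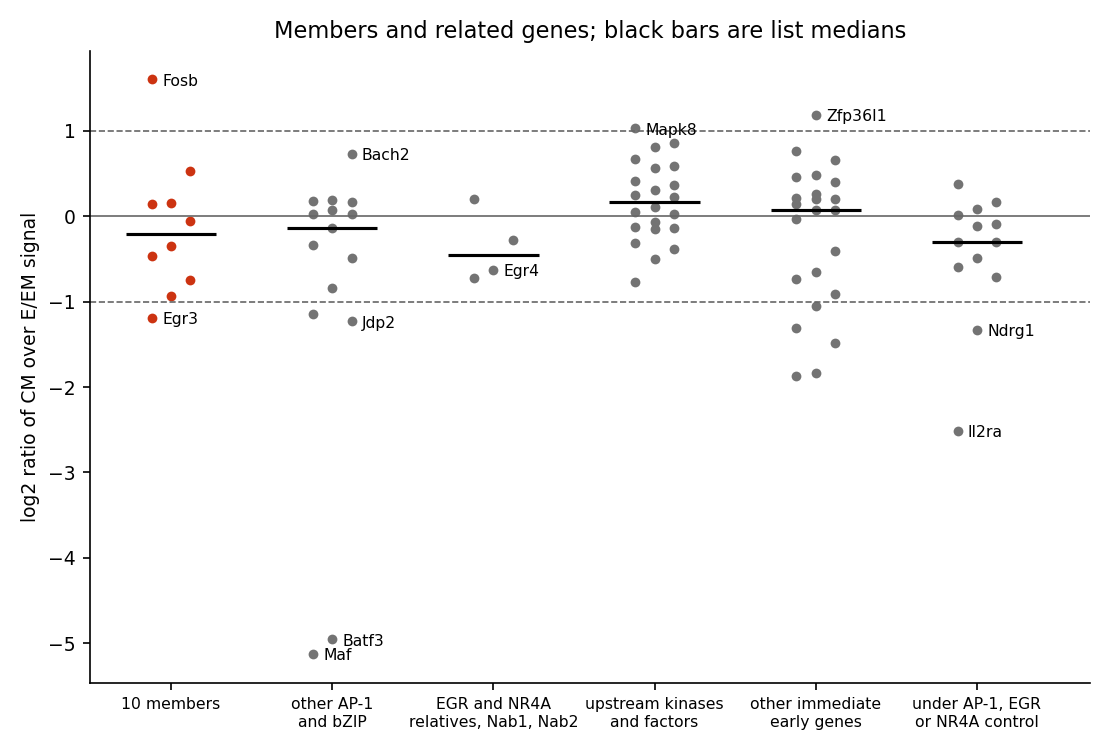
CM over E/EM ratio (log2 scale) of each gene with a ratio, for the 10 members (red) and 5 lists of related genes (grey), with list medians as black bars and 2-fold as dashed lines. Maf and Batf3 lie near -5, far below every member, while the medians of all 6 columns lie between -0.45 and 0.17.

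Other immediate early genes were split. Of 23 with a ratio, 5 were lower in CM cells by 2-fold or more, against 5.61% of all measured genes, and 1 was higher by that much, against 2.73%. The median was 0.07. Tiparp had -1.49, with signals of 295.1 in CM cells and 827.3 in E/EM cells. Gadd45b, Nfil3, Ier3 and Dusp6, the other 4 lower genes, were picked with their values known and had -1.87, -1.83 ± 0.20, -1.31 and -1.05 ± 0.25 (SD, 2 probe sets where given). Zfp36l1, which encodes a protein that destabilises AU-rich RNAs, was the 1 higher gene, at 1.19 with 1396.7 in CM cells and 612.9 in E/EM cells. Klf10 had 0.76 ± 0.09 (SD, 2 probe sets) and Rgs2 -0.73. Counted by sign alone, 10 of the 23 were below 0 and 13 above, against 50.3% of all measured genes below 0.

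Genes known to be controlled by AP-1, EGR or NR4A factors in T cells were mostly within 2-fold. Of 13 with a ratio, 2 were lower in CM cells by 2-fold or more, against 5.61% of all measured genes, and 0 were higher by that much, against 2.73%. The median was -0.30. Ndrg1, a gene induced by Egr2 that restrains T cell activation, had -1.33 ± 0.01 (SD, 2 probe sets), with 1478.9 and 1555.9 in CM cells against 3747.6 and 3889.7 in E/EM cells. The other was Il2ra, at -2.52. Tnf had -0.71 and Dgkz 0.38. Rnf128, a ubiquitin ligase gene picked with its value known, was under the floor in CM cells on 108010_at and at least 2.32-fold lower there. Its other probe set, 162562_at, was under the floor in both, at 60.1 in CM cells and 54 in E/EM cells. The activation marker Cd69 and the ubiquitin ligase gene Cblb, picked with their values known, had 0.09 and 0.01 ± 0.39 (SD, 2 probe sets). Il2, picked with its value known, was under the floor in both kinds of cells.

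The markers of CD8 T cells were present in both kinds of cells. Of 7 with a ratio, 4 were below 0 and 3 above, against 50.3% of all measured genes below 0. Cd3g had a log2 ratio of -0.72, Thy1 -0.29, Cd8a 0.20 and Cd8b1 0.50. The summed SubA signals of 9 probe sets for 7 such markers were 45221.5 in CM cells and 45187.4 in E/EM cells. The 7 B cell probe sets summed to 577.3 in CM cells and 540.0 in E/EM cells on SubA. Of them, 5 were above the floor in each, among them Cd79b at 0.39. Cd79a and Ms4a1, picked with their values known, had -0.51 and -0.47. Of 4 B cell genes with a ratio, 2 were below 0 and 2 above, against 50.3% of all measured genes below 0. The 13 myeloid probe sets summed to 480.6 in CM cells and 726.2 in E/EM cells, with 5 above the floor in each. Of all SubA probe sets, 66.9% were above the floor in CM cells and 69.1% in E/EM cells. All 4 myeloid genes with a ratio were below 0, against 50.3% of all measured genes, with a median of -0.56. Cd14 had -0.63, and Cd68, Csf3r and Csf1r, picked with their values known, had -1.16, -0.50 and -0.06 ± 0.21 (SD, 2 probe sets). Itgam, Lyz1, Lyz2 and Mpo, likewise picked with their values known, were under the floor in both. The helper T cell markers went opposite ways, with Cd4, picked with its value known, at 1.42 and Zbtb7b at least 9.74-fold lower in CM cells. The weaker Cd4 signal was only 1.58 times the floor. Among dendritic cell markers Flt3 had -0.19 ± 0.14 (SD, 2 probe sets), Xcr1 0.03 and Itgax, picked with its value known, 1.60, with 130.3 in CM cells and 43.1 in E/EM cells. Pecam1, an endothelial marker, had 0.46, while the stromal markers Col1a1 and Col1a2, picked with their values known, had -0.38 and -0.19. The erythroid markers Klf1 and Hba-a1 had -0.50 and 0.49. In the stromal and endothelial list and in the erythroid list, 2 of 4 genes with a ratio were below 0 and 2 above, against 50.3% of all measured genes below 0. The 1 NK cell marker named on the arrays, Ncr1, was under the floor in both, and its value was known when it was picked. The part of these markers in the ratios of the 10 genes was not tested.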

How the data were processed

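Total RNA of 2 kinds of CD8+ T cells was measured on 3 array types, 1 array per kind and type. The deposited tables, 1 per array type, hold a linear intensity for each probe set. No header or label states the steps by which the authors made them. The mean after trimming 2% at each end differed by at most 0.00399% between the arrays of a table, under the 5% limit for rescaling, so values were used as deposited. As the floor of a table, the 90th percentile was taken on each array over 15 bacterial poly-A control probe sets, and the higher value was used. Genes were named from the platform annotation in GEO. Probe sets with several symbols and control probe sets named no gene, and all 10 members matched RefSeq (GRCm38.p6) by Entrez identifier. A gene's value was the mean log2 ratio over its probe sets above the floor on both arrays, with the SD over probe sets, which is technical. Genes were counted at 2-fold. A probe set above the floor on 1 array gave a bound, its signal over the floor. The number of arrays limits the precision.

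The 10 members were all named. Of each of the 5 lists of related genes and the 8 lists of cell markers, up to 4 genes were named, those with the largest ratio among genes with every probe set at 2 times the floor or more and with 1 sign throughout, and bounds of at least 4-fold. Members and lists were chosen with earlier results of these data known. Genes outside this rule are marked in the text as picked with their values known. The medians of the marker lists were -0.01 for CD8 T cells, -0.04 for B cells, -0.56 for myeloid cells, 0.03 for dendritic cells, 0.11 for stromal and endothelial cells and 0.08 for erythroid cells. The calculations were tested on simulated data without noise, which checks the arithmetic and not the precision of the values. They were made with Python 3.11.15, numpy 2.4.6 and pandas 2.3.3.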

Additional observations from a re-analysis of the deposited data

How the results depend on the processing

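Fosb was at least 2-fold higher under all 10 alternatives, between 1.58 and 1.60. The direction also held for Fos, Fosl2, Jun, Jund, Egr1, Egr2 and Egr3 under every alternative that gave them a value, 6 alternatives for Egr3 and 8 for Egr2. For the 7 members with 1 ratio, Fosb among them, only quantile normalization and centring could change the value. The other alternatives returned it unchanged or left no ratio, so they are no check on these members. Nr4a1 was at 1.29 on SubA alone and -1.0 with the brightest probe set, and Junb at 0.20 with the brightest. The number of members at least 2-fold lower was 1. It became 0 with a doubled floor (8 members with a ratio) and with a floor at the higher of the 2 arrays' 60th percentiles (7 members). It was also 0 on SubA alone (8 members), on SubA with SubB (9 members), and with a 3-fold rule. In the first 4 of these, 4.12%, 3.44%, 4.35% and 5.34% of all genes were at least 2-fold lower. No Egr3 ratio is left in those 4, and with the 3-fold rule Egr3 falls short. With the brightest probe set per gene the number became 2, Egr3 and Nr4a1, against 6.30% of all genes. The number at least 2-fold higher was 1 and became 2 of 8 on SubA alone, where Nr4a1 joined Fosb, against 2.09% of all genes. Marked probe sets are those with the letter s, f, g, i, r or x before the ending of their name. Without them 9 members had a ratio and Junb had none. The median of the members, -0.20, was -0.41 with the brightest probe set and -0.35 without marked probe sets. At the other end it was 0.04 with a doubled floor and 0.05 on SubA alone. Quantile normalization, centring, the floor halved, the median over probe sets and leaving out marked probe sets kept both counts at 1. Under these, 4.99% to 7.63% of all genes were at least 2-fold lower and 2.77% to 3.86% at least 2-fold higher. The median of all genes was 0.03 after quantile normalization and -0.0076 after centring. No paired analysis was possible because each kind of cell had 1 array per array type and the labels carry no replicate numbers. Low signals limit Egr2 and Egr3, and 1 probe set carries each of 7 members.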
